A study of Saccharomyces cerevisiae with 95 samples.

Results

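Sites over nuclear tRNA genes were examined for 5 general transcription factors in budding yeast, TBP (the TATA-binding protein) and, beside it, TFIIA, TFIIB, TFIIE and TFIIF. A site, meaning an interval in which the authors counted reads, was a member when it overlapped by 1 bp or more one of the 275 nuclear tRNA genes of the R64 (sacCer3) annotation. This gave 722 of 20232 sites, of which 266 of 4385 were TBP sites, 246 of 3685 TFIIA sites, 65 of 4033 TFIIB sites, 105 of 4473 TFIIE sites and 40 of 3656 TFIIF sites. The rule used position alone and no measured level. The sites themselves, however, are peaks that the authors called on early Myc libraries, so a tRNA gene without such a peak has no member.

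The assay was competition ChIP-seq in diploid W303 cells. In each strain 1 gene copy of a factor carried an HA tag behind the GAL1 promoter, which galactose switches on, and the other copy carried a Myc tag behind its own promoter. The tags were on Toa1 for TFIIA, on Tfa1 for TFIIE and on Tfg2 for TFIIF, and in these strains the partner subunit was driven by galactose too. Cells grown in raffinose were moved to galactose and collected after 10, 20, 25 and 30 min and then after 40, 60, 90 and 120 min, with 1 HA and 1 Myc library for each factor and time, so there were no replicates, and the error of every trend below comes from the scatter of the time points. Only a TFIIB-Myc library was also counted at 0 min. The strain is not the S288C strain of the reference sequence. The HA and Myc libraries of a factor held 2740185 to 19483568 counts each, and mean counts of single tRNA sites over the HA and Myc libraries were 2302 to 55090 for TBP and 339 to 33990 for the other factors.

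RNA polymerase III transcribes tRNA genes, and its signals lie inside the gene. TFIIIC binds the A box and B box within the transcribed sequence and places TFIIIB, which is TBP with Brf1 and Bdp1, just upstream of the start. Transcription ends at a run of T on the coding strand. TFIIA, TFIIB, TFIIE and TFIIF are known for their work with TBP at promoters of RNA polymerase II, where TFIIA and TFIIB bind beside TBP, and TFIIF and TFIIE come with and after the polymerase.

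To show these signals in the genes on which the results turn, the 3 tRNA genes with the highest and the 3 with the lowest mean TBP-Myc level are printed from the RefSeq R64 genome, with the 2 tRNA genes that no TBP site touched. Each run holds 50 bases before the gene, the gene, and 30 bases after it, on the strand of the gene. Capitals mark a B box core (GTTCNANNC) inside the gene and the first run of 4 or more T after it.
YNCH0001W, His, highest level, chrVIII:62705-62856, plus strand: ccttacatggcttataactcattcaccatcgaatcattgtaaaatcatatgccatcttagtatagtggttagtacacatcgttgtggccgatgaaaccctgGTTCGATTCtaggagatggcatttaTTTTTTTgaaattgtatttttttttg
YNCB0007W, Thr, next highest, chrII:266328-266480, plus strand: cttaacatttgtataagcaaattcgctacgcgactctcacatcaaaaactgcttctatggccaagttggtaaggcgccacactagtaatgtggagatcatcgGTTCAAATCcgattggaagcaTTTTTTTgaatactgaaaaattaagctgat
YNCE0009C, Lys, next highest, chrV:135395-135547, minus strand: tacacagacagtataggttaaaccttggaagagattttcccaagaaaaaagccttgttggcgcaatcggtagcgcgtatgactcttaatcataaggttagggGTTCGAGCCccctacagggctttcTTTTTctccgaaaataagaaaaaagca
YNCL0038W, Ile, among the lowest, chrXII:734752-734905, plus strand: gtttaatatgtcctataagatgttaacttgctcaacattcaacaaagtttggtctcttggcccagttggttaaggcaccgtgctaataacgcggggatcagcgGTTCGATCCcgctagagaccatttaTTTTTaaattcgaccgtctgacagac
SUF2, Pro, among the lowest, chrIII:123547-123698, minus strand: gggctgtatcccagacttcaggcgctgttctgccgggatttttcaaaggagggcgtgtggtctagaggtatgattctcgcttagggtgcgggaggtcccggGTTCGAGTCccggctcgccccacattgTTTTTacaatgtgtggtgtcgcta
YNCN0008C, Asp, lowest level, chrXIV:519069-519219, minus strand: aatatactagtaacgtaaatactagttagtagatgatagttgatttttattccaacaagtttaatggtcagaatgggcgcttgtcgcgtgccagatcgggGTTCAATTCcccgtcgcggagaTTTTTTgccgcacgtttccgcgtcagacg
YNCC0008W, Met, no TBP site, chrIII:149870-150021, plus strand: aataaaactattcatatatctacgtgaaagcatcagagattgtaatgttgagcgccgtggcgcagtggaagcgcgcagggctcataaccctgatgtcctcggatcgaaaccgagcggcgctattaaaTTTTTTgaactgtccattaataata
YNCC0009C, Lys, no TBP site, chrIII:151254-151406, minus strand: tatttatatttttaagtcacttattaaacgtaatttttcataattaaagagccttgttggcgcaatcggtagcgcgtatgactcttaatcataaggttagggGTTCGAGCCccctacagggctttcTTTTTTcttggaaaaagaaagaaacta

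A match to GTTCNANNC was present in 270 of the 275 tRNA genes (98.2%), on the gene strand or on either strand, and in 1.47% of the first 80 bases of 6002 protein-coding genes on the gene strand (3.00% on either). The stricter core GTTCGANNC, whose matches are all matches of the wider one, was in 200 tRNA genes (72.7%) and 0.183% of those protein-coding stretches on the gene strand (0.400% on either). A run of TTTT lay within 30 bases after 271 tRNA genes (98.5%, also when either strand counted) and after 30.8% of protein-coding genes on the gene strand (51.9% on either). The TBP target TATAAA, as it is known from RNA polymerase II promoters, lay within 50 bases before 18 tRNA genes on the gene strand (6.55%) and before 32 on either strand (11.6%), against 5.40% and 8.45% of protein-coding genes before the start codon. Starts of transcription were not used for the protein-coding genes, so their shares are not those of RNA polymerase II promoters. None of the 8 printed genes had TATAAA upstream on the gene strand. YNCN0008C, the lowest, and YNCB0007W, among the highest, both had the wider core but not the stricter one.

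TBP sites covered 273 of the 275 tRNA genes (99.3%). TFIIA sites covered 252 (91.6%), TFIIE sites 105 (38.2%), TFIIB sites 65 (23.6%) and TFIIF sites 40 (14.5%). The commonest combination was TBP with TFIIA alone, at 138 genes, followed by TBP, TFIIA and TFIIE at 46, all 5 factors at 34, and TBP alone at 21. No tRNA gene lay under a site of another factor without also lying under a TBP site. Coverage shares count called intervals and say nothing of the signal below the authors' peak threshold. By amino acid, TFIIE covered 6 of 10 Gln genes but 3 of 16 Ala genes, and TFIIB covered 8 of 19 Ser genes but 1 of 18 Val genes. None of the 4 Cys genes lay under a TFIIE or TFIIB site, and none of the 7 His genes lay under a TFIIB site.

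The 2 tRNA genes without a TBP site lay close together on chromosome III. YNCC0008W (Met) was 1604 bp from the nearest TBP site, and its sequence is that of 4 other genes, among them IMT1, which had a mean TBP-Myc level of 2.91. YNCC0009C (Lys) was 239 bp from the nearest TBP site and is identical over its whole length to YNCE0009C, 1 of the 3 tRNA genes with the highest TBP level. Whether both genes are present at these places in W303 was not tested.

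The sites of the 5 factors sat at different places on the tRNA genes. Over sites with 1 tRNA gene, TBP midpoints had a median of -61 bp from the start of the gene along its strand (quartiles -122 and -12, 259 sites), upstream of the start where TFIIIB is known to bind. TFIIA midpoints had a median of 36 bp (-17 and 115, 240 sites). Medians of the remaining factors were 165 bp for TFIIB (quartiles -72 and 208, 65 sites), 164 bp for TFIIE (-3 and 231, 105 sites) and 137 bp for TFIIF (-41.5 and 194.8, 40 sites). Medians of all 5 factors went with the distance from the midpoint to a protein-coding start. That distance and the offset use the same midpoint, so they are not independent. For TBP the medians were -29 bp near such a start (30 sites) and -69 bp away from one (229 sites). For TFIIA they were 69 bp (60 sites) and 28 bp (180 sites). With such a start within 250 bp of the midpoint the medians were 171.5 bp for TFIIB (42 sites), 177 bp for TFIIE (63 sites) and 176 bp for TFIIF (23 sites), and without one 103 bp (23 sites), 86.5 bp (42 sites) and -38 bp (17 sites, quartiles -135 and 128). Midpoints within 100 bp of the start made up 59.1% of TBP and 59.6% of TFIIA sites, against 10.8% of TFIIB, 12.4% of TFIIE and 22.5% of TFIIF sites. TBP sites over tRNA genes were also wide, with a median of 779 bp against 260 bp at protein-coding promoters, so their midpoints place TBP less exactly than those of narrow sites.

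**Figure D1:**
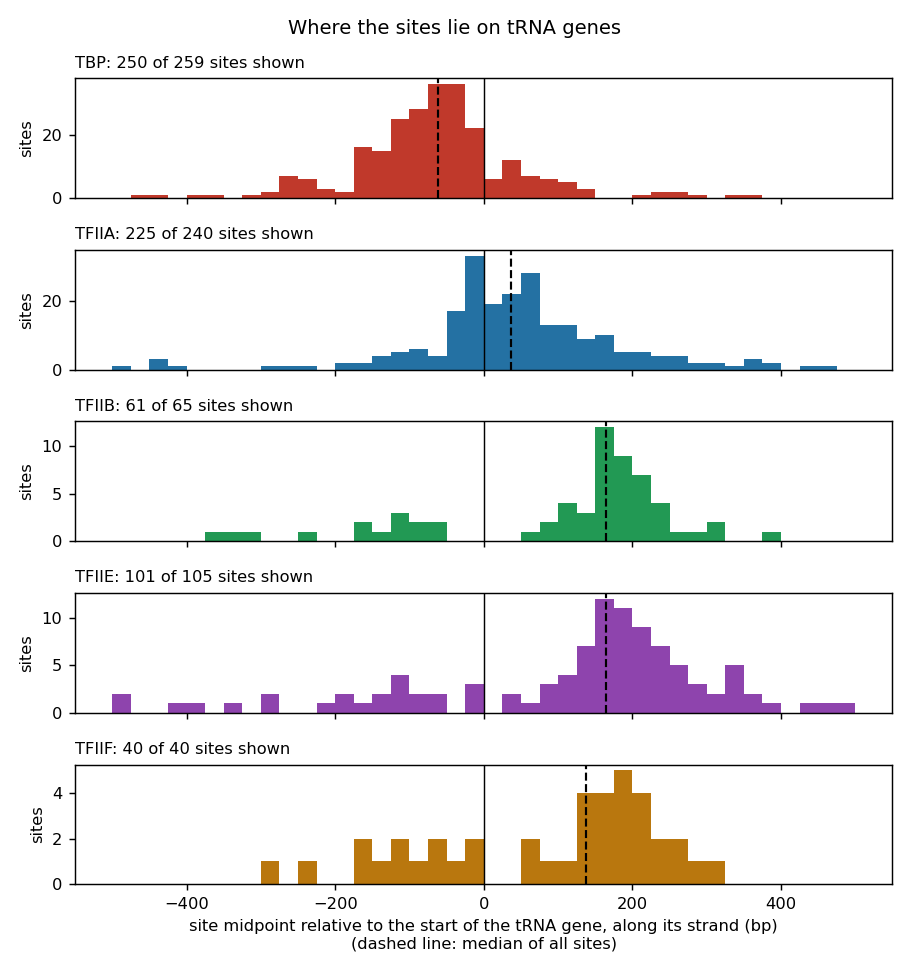
Number of sites in 25 bp bins (vertical axis) by the position of the site midpoint relative to the start of the tRNA gene along its strand in bp (horizontal axis), 1 panel a factor, for sites over 1 tRNA gene. The dashed medians are at -61 bp for TBP, 36 bp for TFIIA, 165 bp for TFIIB, 164 bp for TFIIE and 137 bp for TFIIF, and few TFIIB, TFIIE or TFIIF sites are centred on the gene start.

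The factors also differed in how often a protein-coding gene was near. A protein-coding start lay within 250 bp of the midpoint for 31 of 266 TBP sites, 61 of 246 TFIIA sites, 42 of 65 TFIIB sites, 63 of 105 TFIIE sites and 23 of 40 TFIIF sites. Most sites of every factor were promoter sites, centred 250 bp upstream to 100 bp downstream of a protein-coding start and over no tRNA gene. They were 2423 of 4385 TBP, 2278 of 3685 TFIIA, 2917 of 4033 TFIIB, 3157 of 4473 TFIIE and 2671 of 3656 TFIIF sites. A protein-coding start nearby is thus common among all sites of these factors and not particular to tRNA sites. Measured from the tRNA gene start, a distance that does not depend on the sites, 36 tRNA genes had a protein-coding start within 250 bp and 239 did not. TFIIB sites covered 15 of those 36 genes (41.7%) and 50 of the 239 (20.9%), and TFIIE sites covered 24 (66.7%) and 81 (33.9%). TFIIF sites covered 7 (19.4%) and 33 (13.8%), and TBP covered all 36 and 237 of the 239. Sites near a protein-coding start hold signal that may belong to either gene, and the 2 cannot be told apart at this interval size.

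The level of a site was taken as log2 of its counts per bp, with 0.5 counts added, minus the median of the same value over the protein-coding promoter sites of that library (2423 for TBP). A level of 1 is therefore a signal per bp that is 2-fold that of the median promoter site.

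TBP-HA, the copy made only after galactose, began near the level of the median promoter site at tRNA genes and rose above it later. Its median level over the same 266 sites was 0.17, 0.90, 1.22, 1.36, 1.80, 2.21, 2.84 and 2.60 in time order from 10 to 120 min, and the sites held 9.50% of counts at 10 min and 34.3% at 120 min. At 104 promoter sites of ribosomal protein genes, which are among the busiest RNA polymerase II genes, the median TBP-HA level was 0.25 at 10 min, 0.88 at 20 min and 1.07 at 25 min, after which it stayed between 0.97 and 1.50. The 2 classes thus had like TBP-HA levels in the first 20 min and separated afterwards. At 5 sites over other polymerase III genes, such as SCR1 of the signal recognition particle and SNR6, the U6 spliceosomal RNA, the TBP-HA median was 0.36 at 10 min and 2.92 at 120 min, although 1 of the 5 was below the median promoter site at each of these times. The share of mitochondrial counts moved with time as well, from 2.40 to 18.1% of TBP-HA libraries with its highest value at 10 min, and its part in the result was not tested.

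TBP-Myc, the copy present before galactose, stood high at tRNA genes throughout. The median level of the 266 sites was 2.44, 2.11, 2.25, 2.66, 2.34, 2.10, 2.46 and 2.76 from 10 to 120 min, with no steady direction, against 0.46 to 0.86 at the ribosomal protein sites. The mean over time was above 0 at each of the 266 sites, and 97 of the 100 nuclear sites with the highest mean TBP-Myc level outside the ribosomal DNA were tRNA sites. Among all such nuclear sites, tRNA sites were 266 of 4288. These sites held 27.7 to 36.0% of the counts of the TBP-Myc libraries. In a bulk assay, TBP on more cells and longer or denser binding in each cell cannot be told apart.

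**Figure D2:**
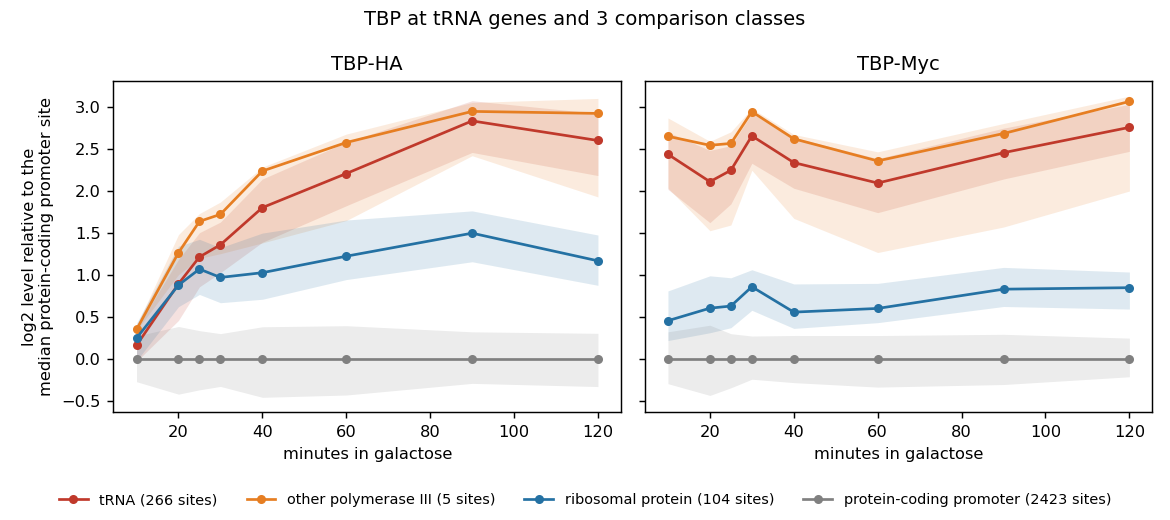
Median level (log2, relative to the median protein-coding promoter site; bands are quartiles) of TBP-HA on the left and TBP-Myc on the right against minutes in galactose, for tRNA sites, other polymerase III sites, ribosomal protein sites and all promoter sites, 1 library a point. TBP-HA at tRNA sites climbs through 90 min, to 2.84, while at ribosomal protein sites it stays between 0.97 and 1.50 from 25 min on.

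The study design asks how fast the new copy replaces the old one, so HA was set against Myc at each time. Relative to the median promoter site, the log2 HA/Myc ratio of TBP had a median of -2.20 at 10 min, -1.21 at 20 min, -1.02 at 25 min, -1.24 at 30 min, -0.54 at 40 min, 0.10 at 60 min, 0.31 at 90 min and -0.17 at 120 min. At 10 min the ratio was below that of the median promoter site at every one of the 266 tRNA sites, by 0.47 to 3.34 on the log2 scale. At 60 min 162 sites were above it, at 90 min 232 and at 120 min 80. The ratio was thus low early at these sites as a group, and at 120 min it was below that at 60 and 90 min in the median. At 10 min their TBP-HA level was near that of the median promoter site, while their TBP-Myc level was already high. The TBP-HA library of 10 min also had the fewest counts of the TBP-HA libraries, and the part of weak early HA signal in the low ratio was not tested. At ribosomal protein sites the median ratio was -0.25 at 10 min and already 0.30 at 20 min.

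The trend was fitted with edgeR's quasi-likelihood test across all sites of a factor. The ratio slope is the change of log2 HA/Myc per doubling of time relative to the typical site, called at a Benjamini-Hochberg adjusted p under 0.05. For TBP the slope was positive at all 266 tRNA sites, with a median of 0.70 and a range of 0.12 to 0.98, beside a median of 0.00 over all 4385 sites. It passed the test as rising at 248 sites, where 6.64% of all TBP sites were called rising, and as falling at 0 sites (also 0 at an unadjusted p under 0.05 and 0 by DESeq2), where 1.25% were called falling. Ribosomal protein sites had a median slope of 0.22 with 1 of 104 rising, and the other polymerase III sites a median of 0.66 with 4 of 5 rising.

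The number of calls rested on the first time point and on the scaling. Without the 10 min libraries 36 tRNA sites were called rising, at a median slope of 0.55, and with linear time in place of log2 time 0 were called, at a median of 1.07 per 60 min. In each fit without 1 time point the sign was the same at 265 of the 266 sites, the exception being SUF2. With an offset that followed the average level of a site (loess), 17 rose and 11 fell, at a median of 0.10. At ribosomal protein sites that offset gave 0 rising and 4 falling, at a median of 0.07. By mean TBP-Myc level, tRNA sites were 229 of the 250 highest, and the part of this in the loess counts was not tested. Scaling to total counts lowered the median slope of all TBP sites to -0.15 and that of the tRNA sites to 0.54, with 241 rising and 0 falling. After subtracting a background, limma called 0 sites of either direction in tRNA sites or elsewhere, though 254 tRNA sites had an unadjusted p under 0.05 and 266 a positive slope.

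Taken alone, TBP-HA rose relative to the typical site at 264 of 266 tRNA sites and fell at 0, with a median slope of 0.74, where 8.87% and 7.27% of all TBP sites were called (edgeR, adjusted p under 0.05). TBP-Myc was called rising at 0 and falling at 0 tRNA sites, with 16 at an unadjusted p under 0.05 and a median slope of 0.05, where 0.502% and 1.76% of all sites were called. A p that misses the threshold does not show that TBP-Myc stayed level, and its slopes ran from -0.18 to 0.26.

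YNCH0001W, a His gene on chromosome VIII with the start of NPR3 nearby, had the highest TBP level. Its TBP-HA level was 0.79, 2.02, 2.46, 2.53, 3.19, 3.67, 4.37 and 3.94 from 10 to 120 min, against 3.85, 3.58, 3.68, 3.82, 3.68, 3.43, 3.91 and 3.88 for TBP-Myc. The HA copy was below the Myc copy through 40 min and above it from 60 min on. The ratio slope was 0.96 (SE 0.14, adjusted p = 0.000497). The steepest slope of all belonged to YNCI0010C, an Asp gene on chromosome IX, at 0.98 (SE 0.14, adjusted p = 0.000497), with a TBP-HA level of 0.45 at 10 min and 3.23 at 120 min, against 2.73 and 2.54 for TBP-Myc. SUP6, a Tyr gene on chromosome VI known as an ochre suppressor locus, followed the same course, with TBP-HA at 0.28 and 3.37 at those times against 3.16 and 3.20 for TBP-Myc, and a slope of 0.95 (SE 0.14, adjusted p = 0.000497).

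YNCN0008C, an Asp gene on chromosome XIV and the only copy of its sequence, stood at the other end. Its TBP-HA level was -0.44, -0.29, -0.18, -0.04, -0.30, -0.45, 0.16 and -0.24, against 0.24, -0.07, -0.02, 0.61, -0.03, -0.28, -0.07 and 0.27 for TBP-Myc. Both copies stayed near the level of the median promoter site, and the ratio slope of 0.14 (SE 0.10, adjusted p = 0.411) did not pass the test. The start of POR1, which encodes the mitochondrial porin, lay within 250 bp of the midpoint. SUF2, a Pro gene on chromosome III, had a mean TBP-Myc level of 0.29 ± 0.69 (SD over 8 time points), a spread as wide as its distance from the promoters, and a slope of 0.12 (SE 0.14, adjusted p = 0.647). YNCL0038W, an Ile gene on chromosome XII, had a mean level of 0.69 over an interval of 3983 bp that reached far beyond the gene, and a slope of 0.25 (SE 0.12, adjusted p = 0.214).

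These 3 were among 18 tRNA sites that did not pass the test for TBP. The 18 had lower TBP-Myc levels (median 1.40, range 0.08 to 2.26) than the 248 called sites (median 2.43, range 0.88 to 3.73) and wider intervals (median 949.5 bp against 760.5 bp). In 16 of the 18 TBP-HA alone still rose. Across the 266 sites, the mean TBP-Myc level and the ratio slope had a Spearman rho of 0.65, given as a description, since both come from the same libraries and the level also went with narrower sites (rho -0.44).

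By amino acid, median TBP-Myc levels ran from 1.96 for Ala (16 sites) and 1.97 for Asp (12 sites) to 2.74 for Thr (16 sites) and 2.82 for His (7 sites). Single sites of 1 amino acid ran from 0.08 to 2.90 for Asp, 0.29 to 2.52 for Pro, 1.09 to 3.40 for Lys and 2.22 to 3.73 for His. Medians vary less than single sites, so these spans and that of the medians are not like measures. Thr and His were the amino acids whose lowest site stood highest, at 2.23 and 2.22. These lowest sites lay above the medians of Ala and Asp, while the ranges of any pair of amino acids overlapped. Differences between amino acids were not tested. Levels are per bp, and across the tRNA sites they went with narrower TBP sites (rho -0.44). Median widths were 837.5 bp for Ala and 839 bp for Asp, against 659 bp for Thr and 648 bp for His. Gln went the other way, with a width of 897.5 bp and a level of 2.53, and the part of width was not tested.

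The highest site of each amino acid had a mean TBP-Myc level between 2.52 and 3.73. After YNCH0001W came YNCB0007W (Thr, 3.62 ± 0.34, SD over 8 time points), YNCE0009C (Lys, 3.40 ± 0.29), YNCG0043C (Gly, 3.35 ± 0.27), YNCM0004C (Arg, 3.25 ± 0.16) and YNCE0026W (Val, 3.15 ± 0.18). YNCD0006W (Ser), YNCM0022C (Trp), YNCD0014C (Gln), EMT4 (Met, an elongator methionine tRNA), YNCH0010C (Phe), YNCE0018W (Glu) and SUP6 (Tyr) lay between 3.04 and 3.12. YNCK0003W (Asn), YNCJ0026W (Asp), YNCP0007C (Cys), YNCP0020W (Ile), YNCB0012W (Leu), TGA1 (Ala) and YNCN0011W (Pro) lay between 2.52 and 2.92. In all 20 of them the ratio slope passed the test, at 0.63 to 0.96.

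Median ratio slopes ran from 0.58 for Phe (10 sites) and 0.62 for Ser (19 sites) to 0.77 for Tyr (8 sites) and 0.78 for Cys (4 sites), so every amino acid lay well above the median of 0.22 at ribosomal protein sites. All sites were called rising for Ala (16), Asn (9), Cys (4), Gln (10), Glu (16), Gly (20), His (7), Leu (20), Trp (6), Tyr (8) and Val (18). The smallest shares called were 11 of 14 for Ile and 8 of 10 for Phe. The 7 sites over 2 tRNA genes had a median level of 2.53 and a median slope of 0.72, and 6 of them were called rising.

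**Figure D3:**
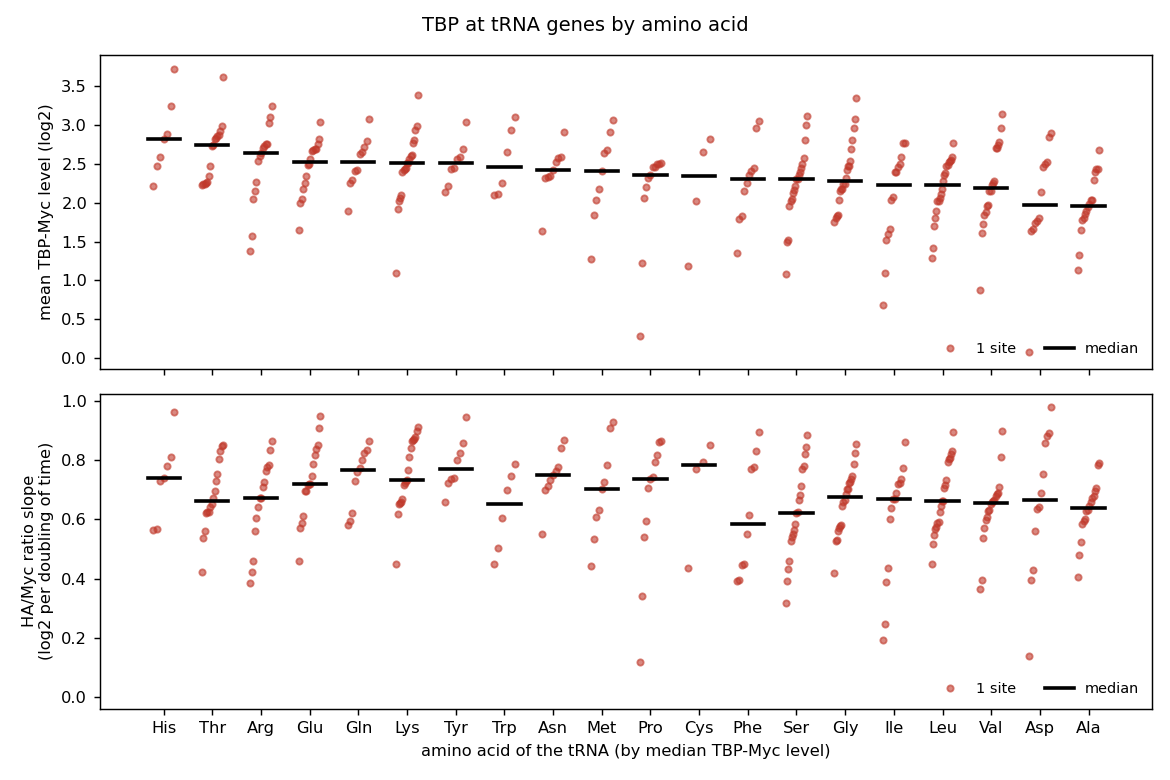
TBP at tRNA sites by the amino acid of the tRNA, with the mean TBP-Myc level over 8 time points above (log2) and the HA/Myc ratio slope below (log2 per doubling of time). Each point is 1 site over 1 tRNA gene and the bars are medians, which run from 2.82 for His to 1.96 for Ala in level. Single sites within an amino acid spread further, and medians vary less than single values. Levels are per bp, and site widths differ between amino acids.

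Sites over identical tRNA genes did not have identical TBP levels. The 275 genes include 23 families of 5 or more genes with the same sequence, 207 genes in all, so that level could be compared at 1 gene sequence. The intervals also hold flanking sequence and differ in width between copies. The lowest site of the 13 identical Ile genes, YNCL0038W, had an interval of 3983 bp. Within a family, the highest and lowest site differed by 0.58 to 2.27 in mean TBP-Myc level (median 1.28). Family medians ran from 1.94 to 2.82, but medians vary less than single sites, so these spans are not like measures. The largest range was that of 13 Val genes, from YNCE0026W at 3.15 to YNCK0014W at 0.88. The 14 identical Lys genes ran from YNCE0009C at 3.40 to YNCG0005W at 1.92, and the last of them is YNCC0009C, which had no TBP site. Reads inside an identical copy cannot be placed by sequence, and how the authors' mapping shared them was not tested here.

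Other gene features are given as medians over TBP sites with 1 tRNA gene, with no test. Genes with an intron had a TBP-Myc level of 2.39 and a ratio slope of 0.71 (59 sites), against 2.40 and 0.69 without one (200 sites). Genes with TATAAA upstream had 2.41 and 0.72 (17 sites), against 2.39 and 0.69 (242 sites). Genes with the stricter B box core had 2.39 and 0.69 (191 sites), against 2.42 and 0.70 (68 sites). Single-copy genes had a level of 2.46 (31 sites), against 2.32 for those with 10 or more identical copies (125 sites). TBP sites near a protein-coding start had a level of 2.65 and a slope of 0.77 (30 sites), against 2.38 and 0.68 (229 sites) for those farther away, with 27 of 31 and 221 of 235 of all such sites called rising. TBP levels at genes that also lay under a TFIIB site (2.47, 64 sites) were close to those at genes that did not (2.34, 195 sites).

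The other 4 factors had no such excess at tRNA genes. TFIIA-HA had median tRNA levels of 0.40 to 0.57 over the 8 times, and TFIIA-Myc -0.07 to 0.12. TFIIB-HA had 0.89 at 10 min and 0.31 to 0.60 later, and TFIIB-Myc -0.05 to 0.10. Levels of TFIIE-HA were -0.02 to 0.41 and of TFIIE-Myc -0.16 to 0.31, and those of TFIIF-HA were 0.10 to 0.40 and of TFIIF-Myc -0.04 to 0.23. The 100 sites with the highest Myc level held 4 tRNA sites in the TFIIA set and 1 in the TFIIE set, and 0 in the TFIIB and TFIIF sets. Among all nuclear sites outside the ribosomal DNA, tRNA sites were 246 of 3647 for TFIIA and 105 of 4405 for TFIIE. They were 65 of 4017 for TFIIB and 40 of 3617 for TFIIF, so the counts among the 100 highest are close to these shares. For all 4, the HA copy at 10 min stood higher at tRNA sites than the Myc copy, in the reverse order of TBP.

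**Figure D4:**
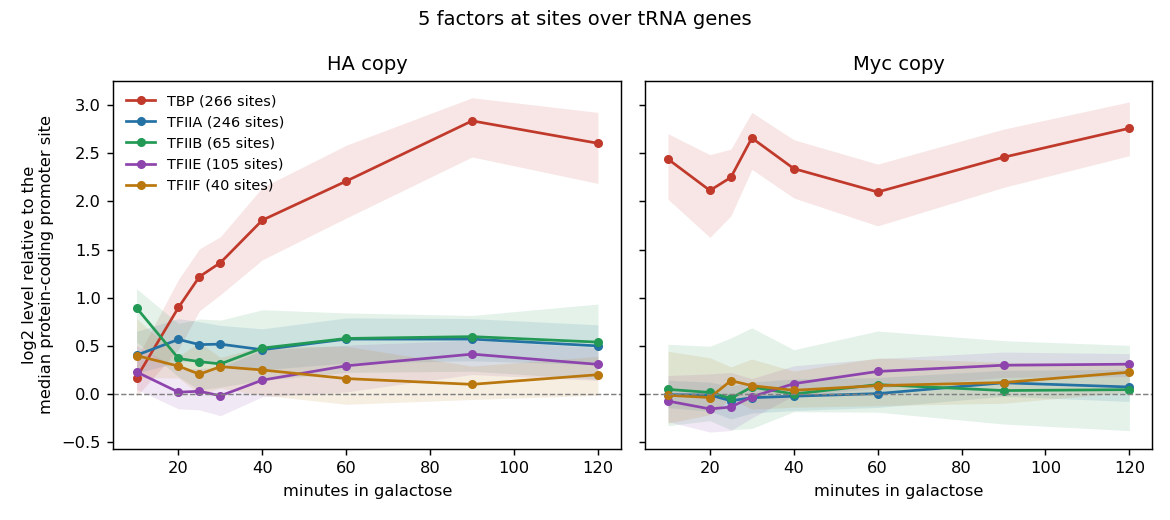
Median level of tRNA sites (log2, relative to the median protein-coding promoter site; bands are quartiles) for the HA copy on the left and the Myc copy on the right of 5 factors against minutes in galactose, 1 library a point. TBP-Myc lies between 2.10 and 2.76 and TBP-HA climbs to it, while the medians of the other factors stay at or below 0.89.

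TBP and each other factor were then set against each other at sites they share, in 1 fit per pair on counts per bp. A site was called when the adjusted p was under 0.05 and the difference at least 2-fold. TBP-Myc was higher than TFIIA-Myc at 227 of 236 shared tRNA sites and lower at 0, with a median difference of 2.31, where 9.70% and 4.42% of all shared sites were called (edgeR). It was higher than TFIIB-Myc at 51 of 57 and lower at 0 (median 2.37, background 9.55% and 4.90%), higher than TFIIE-Myc at 93 of 97 and lower at 1 (median 2.44, background 6.85% and 4.80%), and higher than TFIIF-Myc at 31 of 34 and lower at 0 (median 2.32, background 5.47% and 0.787%). These are differences relative to the typical shared site of each factor, and the 4 comparisons use the same TBP libraries. Each factor was 1 strain and 1 time course, so factor and culture cannot be told apart, here or in the slope comparison below. The sites were also split by whether the midpoint of the other factor's site was near a protein-coding start. TBP exceeded TFIIA at 56 of 59 sites near one and at 171 of 177 away from one, and TFIIE at 56 of 57 near and 37 of 40 away. It exceeded TFIIB at 37 of 39 sites near one and at 14 of 18 away (median difference 2.56 and 2.28), and TFIIF at 21 of 21 near and 10 of 13 away (2.33 and 1.90).

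The largest differences were those of YNCH0001W over TFIIA (3.60, SE 0.08) and TFIIE (3.76, SE 0.17) and of SUP6 over TFIIB (3.92, SE 0.12) and TFIIF (3.43, SE 0.12). The smallest was that of YNCN0008C in all 4 pairs. There TBP was lower than TFIIE by a log2 difference of -1.21 (SE 0.17, adjusted p = 8.3e-05, edgeR) and lower than TFIIA by -0.65 (SE 0.09, adjusted p = 1.7e-05, edgeR), a difference short of 2-fold. The differences from TFIIB (0.03, SE 0.10) and TFIIF (-0.18, SE 0.14) did not pass the test. The tRNA site with the least TBP was thus also among those with the most TFIIE, with a mean TFIIE-Myc level of 1.38. That TFIIE interval was 1062 bp long and had the start of POR1 within 250 bp of its midpoint.

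The ratio slope of TBP exceeded that of the other factor at 218 of 236 shared tRNA sites for TFIIA and was lower at 0, where 8.77% and 0.417% of all shared sites were called (edgeR, adjusted p under 0.05). It was higher at 45 of 57 and lower at 0 for TFIIB (background 4.15% and 0.329%), higher at 90 of 97 and lower at 1 for TFIIE (background 14.3% and 10.6%), and higher at 29 of 34 and lower at 0 for TFIIF (background 9.33% and 4.58%). The medians of the difference were 0.66, 0.70, 0.79 and 0.84 per doubling of time in the order just given. The single lower site was again YNCN0008C (-0.44, SE 0.11, adjusted p = 0.00552, edgeR). With a loess offset on the average level over the libraries of both factors, TBP was higher at 167, 42, 92 and 31 sites. The offset that removed most calls of TBP by itself used the average over the TBP libraries alone. The counts of the paired fits therefore do not tell whether the calls lost there would remain. With scaling to total counts 3 sites were higher and 3 lower against TFIIF, at a median of 0.11, in libraries where mitochondrial sites took 4.48 to 61.9% of TFIIF-HA counts. Without the 10 min libraries the counts were 178 for TFIIA and 20 for TFIIB.

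**Figure D5:**
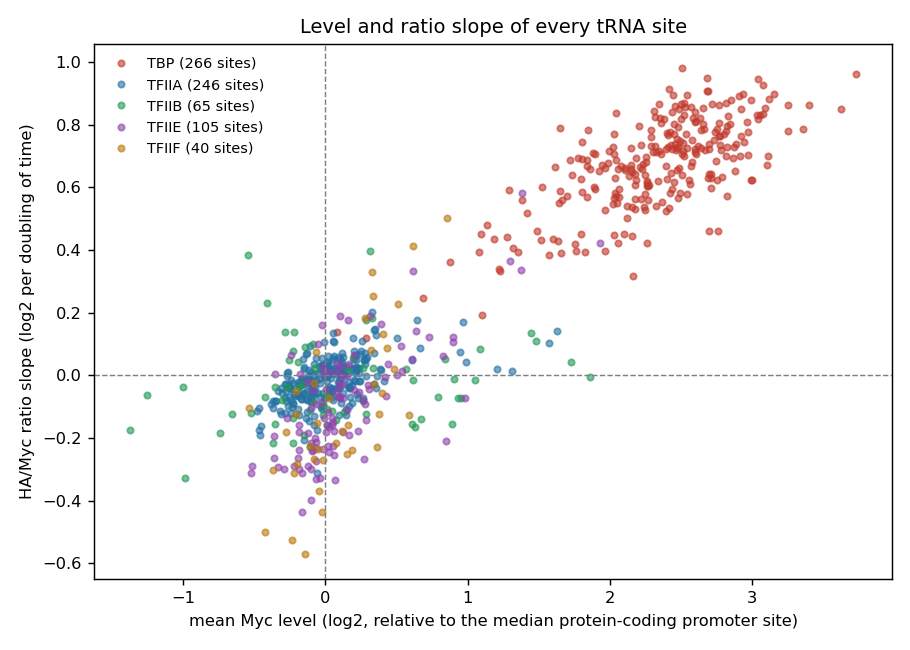
Mean Myc level over 8 time points (horizontal axis, log2, relative to the median protein-coding promoter site) and HA/Myc ratio slope (vertical axis, log2 per doubling of time) of every tRNA site, 1 point a site, for 5 factors. TBP sites lie at slopes of 0.12 to 0.98, and most sites of the other factors lie near a level and a slope of 0.

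Within the other factors, ratio slopes at tRNA sites went both ways. For TFIIA 6 of 246 sites rose and 11 fell, at a median of -0.02, where 7.60% and 9.44% of all TFIIA sites were called (68 rose and 1 fell when scaled to total counts, 0 and 31 with the loess offset). Without 1 time point 0 to 13 rose and 2 to 12 fell, with 0 rising when the 10, 20, 30, 60 or 90 min libraries were left out. TRR4 (Arg) had the largest TFIIA rise (0.20, SE 0.06, adjusted p = 0.0481, edgeR) and YNCG0041W (Lys) the largest fall (-0.31, SE 0.05, adjusted p = 0.00444, edgeR). TFIIA-HA alone rose at 15 and fell at 4 sites, where 11.5% and 10.2% of all sites were called, and without 1 time point at 0 to 41 and 0 to 6, the lowest without 10 or 90 min and the highest without 120 min. Scaled to total counts, TFIIA-HA rose at 169 and fell at 2. TFIIA-Myc rose at 0 and fell at 0, with 53 at an unadjusted p under 0.05, where 0.217% and 0.190% were called.

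For TFIIB 2 of 65 ratio slopes rose and 0 fell (4 and 5 at an unadjusted p under 0.05), where 0.669% and 0.545% of all TFIIB sites were called. Both were sites at which the Myc copy fell. SUP17, a Ser gene on chromosome IX, had TFIIB-HA levels of 1.10 at 10 min and 0.04 at 120 min, against 1.30 and -0.94 for TFIIB-Myc, and a slope of 0.40 (SE 0.09, adjusted p = 0.0334, edgeR). YNCL0047W, a Lys gene beside the start of FBP1, which encodes fructose-1,6-bisphosphatase of gluconeogenesis, had 0.84 and -0.90 for TFIIB-HA, against 0.86 and -2.18 for TFIIB-Myc, and a slope of 0.39 (SE 0.08, adjusted p = 0.016, edgeR). Neither rise was left without the 90 min libraries, and 1 was left without those of 20, 60 or 120 min. Over all 65 sites, TFIIB-HA rose at 0 and fell at 1 (11 at an unadjusted p under 0.05; 3 and 6 without 10 min), where 5.65% and 3.05% were called, and TFIIB-Myc rose at 4 and fell at 7 (2 to 6 and 3 to 7 without 1 time point), where 10.8% and 9.37% were called. The highest TFIIB-Myc levels were those of SUF16 (Gly, 1.86 ± 0.35, SD over 8 time points) and YNCB0002W (Phe, 1.72 ± 0.08). The TFIIB interval of SUF16 had its midpoint at 321 bp from the gene start and that of YNCL0047W at -335 bp. Both intervals thus hold mostly sequence outside the tRNA gene.

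TFIIE changed at more tRNA sites, as it did at most sites. Ratio slopes rose at 11 of 105 and fell at 51, at a median of -0.09, where 29.4% and 30.9% of all TFIIE sites were called, and at 3 and 58 with the loess offset. At ribosomal protein sites 89 of 93 rose and 0 fell, at a median of 0.42, and 40 and 4 with the loess offset, at a median of 0.08. TFIIE-HA rose at 6 tRNA sites and fell at 0 (31 at an unadjusted p under 0.05; 29 rose without 10 min and 0 without 20, 25, 60 or 90 min), where 3.04% and 3.78% were called, and TFIIE-Myc rose at 64 and fell at 11 (7 without 90 min and 6 without 120 min), where 30.9% and 29.4% were called. The 2 tRNA sites with the highest TFIIE-Myc level had the largest ratio rises. At YNCN0008C TFIIE-HA was 0.96 at 10 min and 1.59 at 120 min, against 1.96 and 0.47 for TFIIE-Myc, with a slope of 0.58 (SE 0.06, adjusted p = 1.8e-05, edgeR). At SUF10 (Pro) TFIIE-HA was 2.06 and 1.74, against 2.51 and 0.74 for TFIIE-Myc, with a slope of 0.42 (SE 0.07). The TFIIE interval of SUF10 was 1441 bp long with its midpoint 498 bp from the gene start, so it holds mostly sequence outside the tRNA gene. With the loess offset the slope of SUF10 turned to -0.11 (adjusted p = 0.00933, edgeR) and that of YNCN0008C was 0.16 (adjusted p = 0.0773, edgeR). The largest falls were those of YNCE0010W (Arg, -0.44, SE 0.07) and YNCG0042C (Trp, -0.40, SE 0.05).

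For TFIIF 4 of 40 ratio slopes rose and 14 fell, at a median of -0.14, where 19.4% and 17.1% of all TFIIF sites were called. Scaled to total counts the split was 20 rising and 0 falling, so the direction depends on the scaling, and without the 10 min libraries 2 rose and 7 fell (2 rose without 20 min, 9 fell without 90 min). TFIIF-HA alone rose at 3 and fell at 16, where 22.2% and 21.1% were called (16 and 0 when scaled to total counts, 6 falling without 10 min, 1 rising without 90 min), and TFIIF-Myc rose at 0 and fell at 0, with 9 at an unadjusted p under 0.05 and 3 and 1 without 25 min, where 0.711% and 0.0547% were called. SUF10 and SUF16 (Gly) had both the highest TFIIF-Myc levels (0.85 and 0.61) and the largest rises (0.50, SE 0.14, and 0.41, SE 0.09), which became -0.14 and 0.07 with the loess offset, neither past the test. Their TFIIF intervals were 1579 and 575 bp long, with midpoints 278 and 309 bp from the gene start. These intervals thus hold mostly sequence outside the tRNA gene. YNCN0017W (Asn) and YNCO0008W (Ser) had the largest falls (-0.57, SE 0.09, and -0.53, SE 0.10). The highest TFIIA-Myc levels at tRNA genes, 1.63 at YNCE0005W (Ser) and 1.57 at SUF1 (Gly), were measured over intervals of 2473 and 2329 bp that hold other genes as well.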

How the data were processed

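The authors mapped reads to sacCer3 with Bowtie2 2.2.6, called peaks with MACS2 2.1.0.20151222 on early Myc libraries against input, merged overlapping peaks within each factor and counted reads in them with bedtools. The deposited values are raw counts per interval, read here as BED intervals and printed 1-based. Of 95 libraries, 81 had counts and 14 (input and 0 min Myc libraries) were not analysed here. The study removed regions assigned to tRNA genes when sites were assigned to genes, and its residence time fits were not repeated here. Sites were joined to the RefSeq R64 annotation (275 nuclear tRNA genes, with 24 mitochondrial ones left out).

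Slopes were fitted on the counts of all sites of a factor that averaged 10 or more counts over the libraries, in edgeR 4.0.16 (R 4.3.3, quasi-likelihood, TMM, time point as a block, 6 residual degrees of freedom), with p-values adjusted by Benjamini-Hochberg over all sites of the factor at a threshold of 0.05. With 1 library per factor, tag and time, p-values measure the scatter of time points only. Pairs of factors were fitted over shared sites (1 bp overlap) with site width in the offset. Alternatives used DESeq2 1.42.0, limma 3.58.1, other scalings and filters, and each time point left out. The main fits of the ratio slope, the pair level and the slope difference were tested on simulated data with 200 changed sites. The fits of 1 tag alone, which had log2 time and no time block, and the alternatives were not simulated.

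Sites named were, per amino acid, the one with the highest TBP-Myc level, the 3 highest and 3 lowest TBP-Myc levels, per factor the 2 largest called rises and falls with at least 50 mean counts and 1 sign in all 8 fits without a time point, per other factor the 2 highest Myc levels, and per pair the largest and smallest level difference. YNCC0008W, YNCC0009C and the genes named for their families or coverage were added after values were seen, as was the wider B box core. The members and lists were chosen with earlier results of these data known.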

Additional observations from a re-analysis of the deposited data

Results flagged for a closer look

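The HA/Myc ratio slope differed between factors at the same tRNA sites by a test of the difference itself (edgeR, tag by time by factor term, adjusted p under 0.05). TBP had the higher slope than TFIIA at 218 of 236 shared sites, than TFIIB at 45 of 57, than TFIIE at 90 of 97 and than TFIIF at 29 of 34, with median differences of 0.66, 0.70, 0.79 and 0.84 log2 units per doubling of time. Scaled to total counts, the TFIIF difference was called higher at 3 and lower at 3 sites, at a median of 0.11, and without the 10 min libraries TBP was higher than TFIIB at 20 sites. The 4 tests share the TBP libraries. Each factor was 1 strain and 1 time course, so a difference between factors cannot be told apart from a difference between cultures. With 1 library per factor, tag and time point, no set of 4 to 10 samples of 1 kind was there to be searched for a sample far from the others.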

How the results depend on the processing

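Counts below are tRNA sites rising and falling in HA/Myc ratio slope unless another measure is named, and the cause of each difference was not tested unless stated. TBP gave 17 and 11 with the loess offset on average level, 0 rising with linear time and 0 rising after background subtraction. TFIIA gave 0 and 31 with loess, 68 and 1 with total counts, 0 and 4 with linear time, 18 falling by DESeq2, and 0 and 0 after background subtraction, and its HA slope 169 and 2 with total counts. TFIIB gave 1 and 1 with loess, 1 rising with linear time, 1 falling by DESeq2, 0 rising without the time block and 0 rising after background subtraction, and its Myc slope 7 rising with DESeq2 size factors. TFIIE gave 3 rising with loess, 33 falling with linear time and 4 rising after background subtraction, and its HA slope 3 falling with total counts. TFIIF gave 0 rising with loess, 20 and 0 with total counts, 0 and 2 with linear time, 0 and 4 after background subtraction, and its HA slope 16 and 0 with total counts.

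For TBP against another factor, the Myc level was lower at 1 site for TFIIA with total counts and at 1 with no minimum fold, and for TFIIE at 0 with counts per site and at 2 with no minimum fold. The slope was lower at 1 site for TFIIA and 1 for TFIIB with total counts and at 0 for TFIIE with loess, and higher at 3 and lower at 3 for TFIIF with total counts.

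Without division by site width, mean levels were 3.32 for TBP-HA, 4.08 for TBP-Myc, 0.95 for TFIIA-HA, 0.43 for TFIIA-Myc, 0.20 for TFIIB-Myc, 0.55 for TFIIE-HA, 0.43 for TFIIE-Myc and 0.18 for TFIIF-Myc, since tRNA sites are wider than promoter sites for most factors. TFIIB-Myc was 0.08 relative to all nuclear sites and -0.13 at sites away from protein-coding starts, where TFIIF-HA was 0.36.

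Leaving out 1 time point gave 36 to 263 rising for TBP and 261 to 263 for its HA slope. It gave 0 to 13 rising and 2 to 12 falling for TFIIA (HA slope 0 to 41 and 0 to 6), 0 to 2 rising for TFIIB (Myc slope 2 to 6 and 3 to 7, HA slope 0 to 3 and 1 to 6), 11 to 13 and 38 to 50 for TFIIE (Myc slope 56 to 68 and 6 to 13, HA slope 0 to 29 and 0 to 2), and 2 to 5 and 7 to 15 for TFIIF (Myc slope 0 to 3 and 0 to 1, HA slope 1 to 4 and 6 to 17). TBP was higher in level at 226 to 228 sites against TFIIA, 51 to 53 against TFIIB, 91 to 93 against TFIIE and 31 against TFIIF, and in slope at 178 to 230, 20 to 51, 80 to 93 and 25 to 29. Lower slopes numbered 0, 0, 1 and 0. Other counts of 0 stayed at 0.

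No paired analysis was possible because each factor, tag and time had 1 library, and the labels give no replicate that pairs them beyond the time point, which is already a block. Count filters of 0 and 50 and a pseudocount of 5 changed no count or level by more than 1.5 times or 1 SD. The least covered tRNA site averaged 339 counts over the HA and Myc libraries of its factor. Counts differed between libraries, and all TFIIF tRNA sites together held 7201 counts in TFIIF-HA at 10 min against 82843 at 60 min. The part of the depth of single libraries in the calls was not tested.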

Other observations

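TFIIB-Myc was the only library counted before galactose. At 0 min its median level at the 65 TFIIB tRNA sites was -0.09, against medians of -0.05 to 0.10 at 10 to 120 min, and 28 of the 65 sites were above the median promoter site, against 30 to 37 at the later times. The 65 sites held 1.69% of its counts, against 1.56 to 1.71% later.

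Across tRNA sites, the HA and Myc levels of TBP had a Spearman rho of 0.62 at 10 min and 0.74 at 120 min (266 sites). For TFIIF the values were -0.27 and 0.84 (40 sites), for TFIIA 0.17 and 0.54 (246 sites), for TFIIB 0.33 and 0.70 (65 sites), and for TFIIE 0.56 and 0.62 (105 sites). These are descriptions across sites of the same libraries, and the 10 min HA library also had the fewest counts among the HA libraries of each factor. In each factor the HA copy therefore ranked the tRNA sites more like the Myc copy at 120 min than at 10 min.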
